A study of Mus musculus with 20 samples.

Results

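The clustered protocadherin genes of the mouse lie on chromosome 18 in 3 neighbouring groups, the alpha, beta and gamma subclusters. Protein-coding genes on that chromosome whose symbol starts with Pcdha, Pcdhb or Pcdhg were taken from the GENCODE basic annotation of mm10 (GRCm38), which gave 57 of 21938 protein-coding genes: 14 in the alpha, 22 in the beta and 21 in the gamma subcluster, all on the plus strand. Peaks were taken from the first to the last of these genes with 50 kb added on each side, chr18:36880184-37891873, a window of 1011.69 kb. Of the peaks in the deposited lists, 105 fell in this window.

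Chromatin was immunoprecipitated from the livers of male wild-type C57BL/6 mice that were young (3 months) or old (21 months), with antibodies against histone H3 acetylated at lysine 14 (H3K14ac), the methyltransferase Setdb1 and its partner Kap1, and was sequenced (ChIP-Seq). All mice were wild-type and age was the variable compared. Each mark and age had 1 peak list, for which the authors merged 3 livers per age for H3K14ac and for Setdb1 and 2 per age for Kap1. The lists give positions without heights, scores or read counts, so the depth behind a peak is unknown, no spread between livers exists, and the ages were compared without a test; the 95% Wilson intervals given below cover counting error only. Whole liver was used, so fewer cells with a bound site and less binding per cell cannot be told apart. Of 8 hepatocyte marker genes, 4 had an H3K14ac peak within 1 kb of a start site in young liver (Apoa1, Apob, Tat and Cyp3a11) and 3 in old liver (Apoa1, Apob and Ttr), whereas Alb had none. Of 4 neuronal markers, Syt1 had a peak in young liver and none of the 4 had a peak in old liver. Of the markers of other liver cells, the cholangiocyte marker Sox9 had a peak in old liver and the stellate cell marker Reln in young liver, and none of 4 endothelial, 4 macrophage and 3 lymphocyte markers had a peak at either age. Over all protein-coding genes 18.3% had such a peak in young and 26.6% in old liver, so lists of this size say little about cell types.

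Protocadherins are adhesion proteins of the cell surface, and the clustered ones are best known from the nervous system, where each neuron uses its own small set of them and neurites thereby tell self from non-self. In the alpha and gamma subclusters every gene has its own promoter and its own large variable exon, spliced to constant exons that the subcluster shares. A beta gene carries its coding sequence in its large exon. Promoter choice depends on CTCF and cohesin, and in neurons Setdb1 is known to shape the chromatin of the locus. Setdb1 trimethylates lysine 9 of histone H3, and Kap1 (Trim28) brings it to DNA that is bound by KRAB zinc finger proteins. The large exons, from 2346 bp to 8695 bp long with a median of 2611 bp, covered 182.324 kb or 18% of the window.

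Kap1 peaks were dense over the cluster in young liver and far fewer in old liver, where their density was near that of the genome. The window held 54 Kap1 peaks in young and 8 in old liver. In young liver this was 53.4 peaks per Mb, against 16.2 per Mb over the rest of chromosome 18 and 17.9 per Mb over the genome. In old liver it was 7.91 peaks per Mb in the window, against 6.03 per Mb over the rest of chromosome 18 and 8.12 per Mb over the genome, so the value of the window lay between them. Old peaks made up 12.9% of the Kap1 peaks of both ages in the window (95% Wilson interval 6.69% to 23.4%), 27.1% on the rest of chromosome 18 (25.2% to 29.1%) and 31.2% over the genome (30.8% to 31.5%). The interval of the window thus lay below the intervals of both references.

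Setdb1 also had fewer peaks in the window in old than in young liver. Its lists held 25 peaks in the window in young and 10 in old liver, or 24.7 and 9.88 peaks per Mb, against 19.8 and 5.24 per Mb over the rest of chromosome 18 and 18.6 and 5.09 per Mb over the genome. The old share in the window was 28.6% (16.3% to 45.1%), and the share over the genome, 21.5%, lay within that interval. H3K14ac peaks were few, with 5 in young and 3 in old liver. Their density of 4.94 and 2.97 per Mb stood beside 5.36 and 6.14 per Mb over the rest of chromosome 18 and 7.10 and 7.51 per Mb over the genome, and their old share of 37.5% had an interval (13.7% to 69.4%) that included the 51.4% of the genome.

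**Figure D1:**
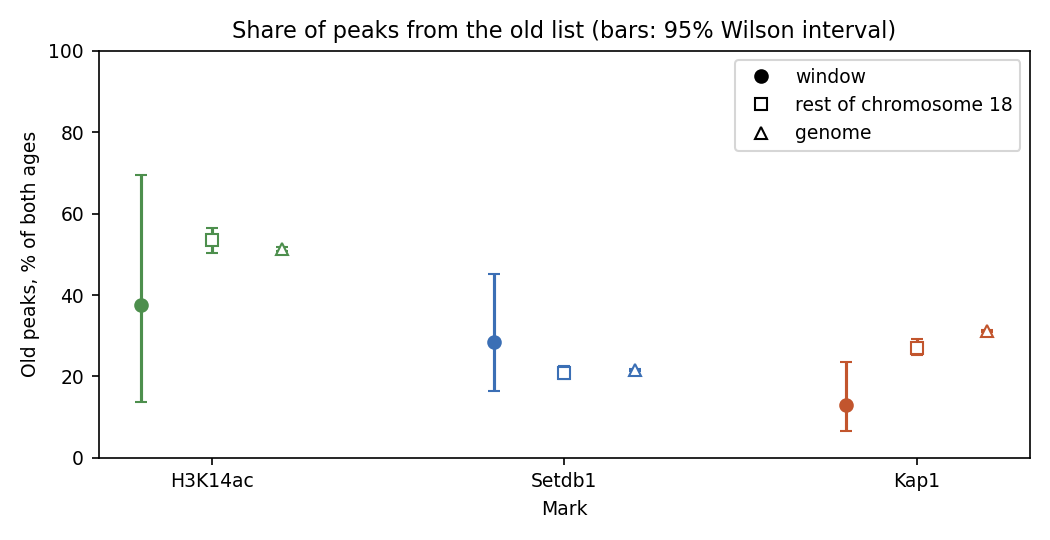
Share of the peaks of both ages that came from the old list (vertical axis, percent) for each mark, in the protocadherin window, on the rest of chromosome 18 and in the genome, with bars for the 95% Wilson interval. For Kap1 the window (12.9%) sits below the rest of chromosome 18 (27.1%) and the genome (31.2%), and for Setdb1 and H3K14ac the interval of the window includes the genome's value.

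The window was set beside 2424 back-to-back autosomal windows of the same length. For Kap1 in young liver, 2275 of them held fewer peaks than the cluster, 4 held the same number and 145 held more, with a median of 11 and a maximum of 232. For Kap1 in old liver, 1667 held fewer and 658 held more than the 8 peaks of the cluster, with a median of 4. The cluster thus held more young Kap1 peaks than 93.9% of the windows and more old ones than 68.8%. Old and young counts were also compared in the windows nearest to the cluster in young Kap1 peaks, those with 41 to 67 of them (within 25% of its 54, a band set after the counts were seen). In these 109 windows the old list held a median of 32.3% as many peaks as the young list, from 2.22% to 142%. In the cluster it held 14.8% as many, and 13 of the 109 windows (11.9%) had a lower value. Among the 149 windows with at least 54 young Kap1 peaks, whose median young count was 85, the median was 50% and 2 windows were lower than the cluster, so its place depends on the windows it is set beside.

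For Setdb1, 1756 windows held fewer peaks than the cluster in young and 2045 in old liver, and 566 and 272 held more. For H3K14ac, 1183 windows held fewer peaks in young and 657 in old liver, and 1069 and 1566 held more. Neither mark placed the cluster as far up the ranking in young liver as Kap1 did.

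**Figure D2:**
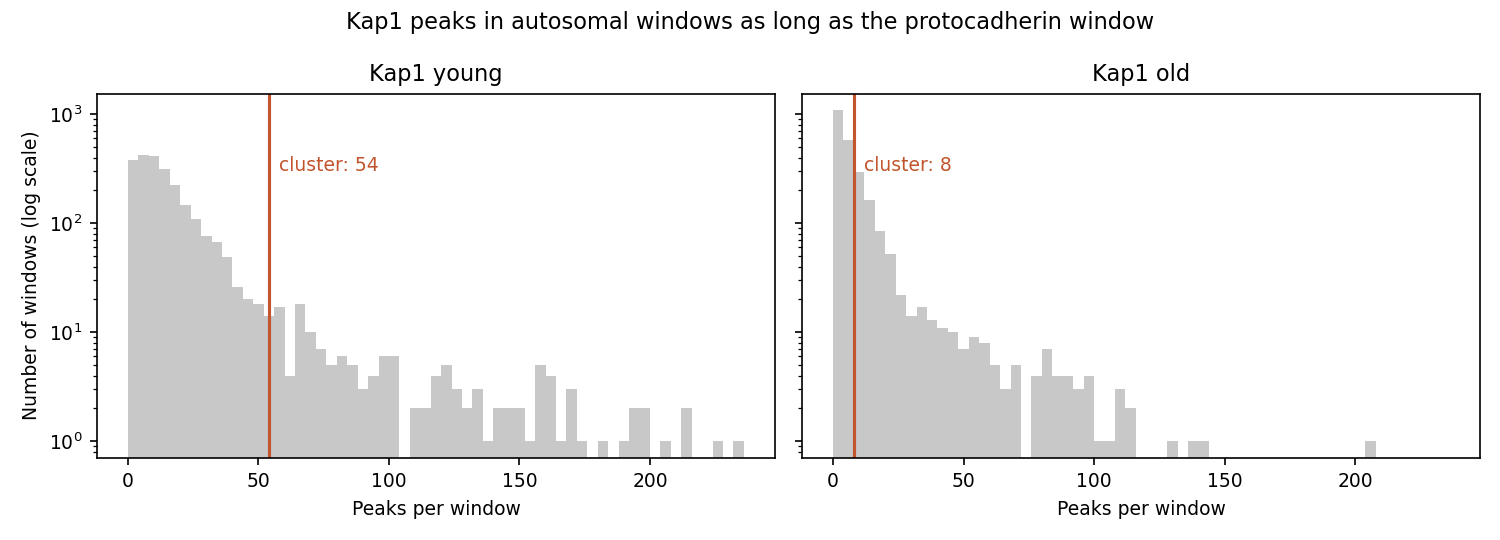
Number of autosomal windows (vertical axis, log scale) by the number of Kap1 peaks they hold (horizontal axis), for young liver on the left and old liver on the right, with a line at the value of the protocadherin window. The line at 54 peaks stands in the upper tail of the young distribution, whose median was 11, and the line at 8 peaks stands above the median of the old one, which was 4.

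The young Kap1 peaks were spread over all 3 subcluster regions and the spaces between them. The alpha region held 11, the beta region 16 and the gamma region 11, with 5 between alpha and beta and 7 between beta and gamma. This was 42.7 peaks per Mb in the alpha, 61.6 in the beta and 61.1 in the gamma region. Outside them it was 64.7 per Mb between alpha and beta, 51.0 between beta and gamma, 80 in the right flank and 0 in the left flank. The right flank, most of which lies in Diaph1, a formin that nucleates actin filaments, held 4, and the left flank held 0. The first young Kap1 peak stood 59.1 kb downstream of the first start site of Pcdha1, beyond the variable exons of 7 alpha genes, so that the window held no young peak in its first 109.1 kb. Of the 8 old Kap1 peaks, 4 lay in that stretch, 2 of them in the left flank. The beta region held 1 old Kap1 peak and the gamma region held 0.

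Setdb1 peaks of young liver were spread from the left flank to the space before the gamma region. The alpha and beta regions held 7 each, the space between them 4, the space between beta and gamma 5, and the gamma region 1. No young Setdb1 peak lay in a stretch of 161.9 kb that starts 730.3 kb from the start of Pcdha1 and takes in the gamma variable exons. In old liver 5 of the 10 Setdb1 peaks lay in the beta region, and the alpha and gamma regions held 1 each. Of the H3K14ac peaks, the gamma region held 2 in young and 1 in old liver, the beta region 1 at each age, and the alpha region 1 in young and 0 in old liver.

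**Figure D3:**
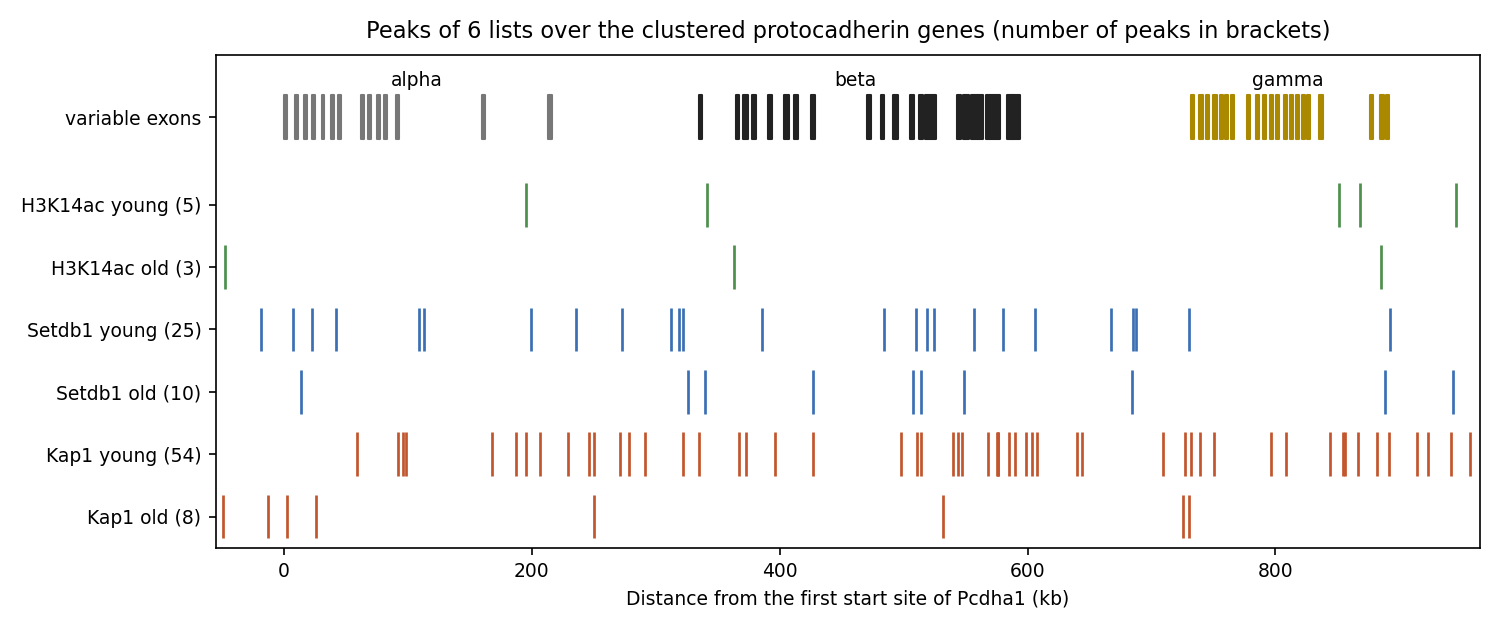
Peaks of the 6 lists (coloured ticks, 1 row per list with its number of peaks) and the variable exons of the alpha, beta and gamma genes (top row) by distance from the first start site of Pcdha1 in kb. The 54 young Kap1 peaks cover the cluster from 59.1 kb onwards, and 4 of the 8 old Kap1 peaks lie before that point.

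**Figure D4:**
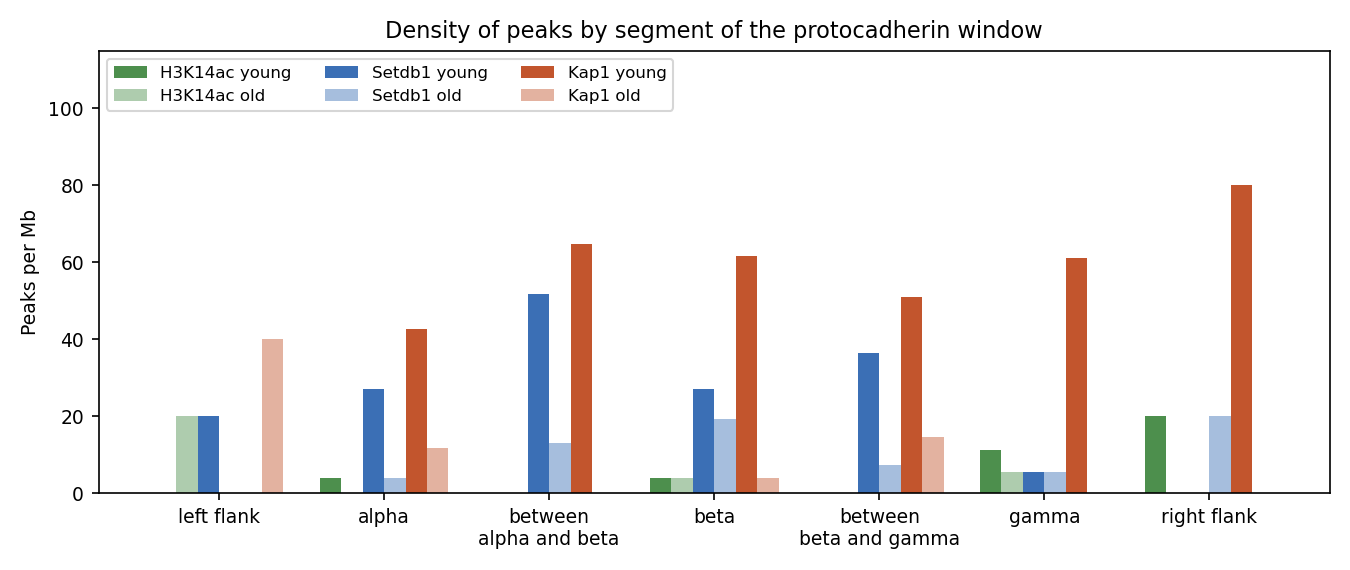
Peaks per Mb (vertical axis) in the 7 segments of the window (horizontal axis), with 1 bar per list. Young Kap1 stands between 42.7 and 61.6 peaks per Mb in the 3 subcluster regions, and old Kap1 between 0 and 11.7.

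Few of the 57 genes had a peak at a start site, and those that did had mainly a young Kap1 peak. A Kap1 peak lay within 1 kb of a start site of 8 genes in young liver, or 14% (95% Wilson interval 7.29% to 25.3%), where 5.32% of all protein-coding genes had one. These were Pcdhb1, Pcdhb15, Pcdhb16 and Pcdhb20 of the beta and Pcdhga1, Pcdhga2, Pcdhgb1 and Pcdhga8 of the gamma subcluster, and none was an alpha gene. In old liver 0 of the 57 genes had a Kap1 peak there (up to 6.31%), where 2.3% of all protein-coding genes did, and that background lies within the interval. Setdb1 was at the start site of 1 gene in young liver, Pcdha4, against 3.91% of all genes, and of 2 in old liver, Pcdhb16 and Pcdhgc5, against 1.15%. H3K14ac was at no start site of the cluster in young liver, although 18.3% of all protein-coding genes had such a peak, and the upper limit of 6.31% is below that value. In old liver it was at 1, that of Pcdhgc4 (1.75%, 0.310% to 9.29%), against 26.6% of all genes.

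With a wider reach of 5 kb from a start site, which takes in the whole of most large exons, 25 members had a young Kap1 peak, against 15.4% of all protein-coding genes, and 4 had an old one, against 7.78%. For Setdb1 it was 14 members in young liver, against 17.1% of all genes, and 11 in old liver, against 5.21%. For H3K14ac it was 0 members in young liver, against 23% of all genes, and 3 in old liver, against 31.4%. Start sites of neighbouring members lie within a few kb of each other, so that a peak can be counted for several genes.

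The large exons themselves carried more of the peaks. In young liver 17 of the 57 genes, or 29.8% (19.5% to 42.7%), had a Kap1 peak over the large exon. Long exons have more room for a peak, so the comparison was made with all 1090 protein-coding genes whose exon with the start codon is at least 2000 bp long, of which 10.6% had a young Kap1 peak over it. Without the members, 9.49% of the remaining 1033 genes had one (7.85% to 11.4%), an interval that lay wholly below that of the cluster. The share of the cluster counts all 19 young Kap1 peaks over large exons. Leaving out those at least 90% identical in sequence to another large exon left 11 peaks. Whether the intervals stay apart without them was not tested. Per length, the large exons held 104 young Kap1 peaks per Mb, the long exons of the other genes 35.3, and the rest of the window 42.2. In old liver 1 gene of the cluster had a Kap1 peak over the exon, Pcdha1, against 4.68% of the genes with a long exon.

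The share was also taken by subcluster. A young Kap1 peak lay over the exon of 10 of 22 beta genes (45.5%, 26.9% to 65.3%), 6 of 21 gamma genes (28.6%, 13.8% to 49.96%) and 1 of 14 alpha genes (7.14%, 1.27% to 31.5%). The intervals of the 3 subclusters overlap, and no difference between them was tested. The beta genes were Pcdhb1, Pcdhb2, Pcdhb3, Pcdhb8, Pcdhb13, Pcdhb15, Pcdhb19, Pcdhb20, Pcdhb21 and Pcdhb22. The gamma genes were Pcdhga1, Pcdhga2, Pcdhgb1, Pcdhga8, Pcdhga9 and Pcdhgc5, and the alpha gene was Pcdha12. Of the 16 young Kap1 peaks with their midpoint in the beta region, 11 lay over a large exon (68.8%, 44.4% to 85.8%), and the exons take up 35.5% of that region. In the gamma region 6 of 11 did (54.5%, 28.0% to 78.7%), and the exons take up 30.6% of it. In the alpha region it was 1 of 11, where exons take up 13.7%, so the peaks of that subcluster lay mostly in its introns. No peak of any list overlapped a constant exon of the alpha or gamma subcluster.

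Setdb1 lay over the large exon of 4 genes at each age, but of different genes. In young liver these were Pcdha4, Pcdhb10, Pcdhb14, which had 2 peaks, and Pcdhb17, or 7.02% of the members against 8.26% of the genes with a long exon. In old liver they were Pcdhb8, Pcdhb12, Pcdhb13 and Pcdhb16, again 7.02% (2.76% to 16.7%), against 2.48%, a value outside that interval but near its lower end. Of these 4 old peaks, 2 were at least 90% identical in sequence to another large exon, and the share was not taken without them. H3K14ac lay over the exon of Pcdhgc4 in old liver and over no exon in young liver, against 11.7% and 7.89% of the genes with a long exon.

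Across all 6 lists, 25 of the 57 genes had a peak at a start site or over the large exon, and 32 had none: 11 of the alpha, 7 of the beta and 14 of the gamma genes. By the same rule 42.7% of all protein-coding genes had a peak of any list, and 46% of those with a long exon, so the 43.9% of the members (31.8% to 56.7%) is near the background. For the 4 Setdb1 and Kap1 lists alone it was 24 members (42.1%, 30.2% to 55.0%), against 25.2% of the genes with a long exon. Of the C-type genes at the ends of the alpha and gamma subclusters, which neurons use more uniformly than the others, Pcdhac1, Pcdhac2 and Pcdhgc3 had none. Pcdhgc4 had the old H3K14ac peak, and Pcdhgc5 had 1 young Kap1 peak at the far end of its exon and 1 old Setdb1 peak 450 bp upstream of it. In 2 genes, Pcdhb8 and Pcdhb13, the exon held a young Kap1 peak and an old Setdb1 peak, and no exon held peaks of the same mark at both ages.

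Within the gamma exons, the young Kap1 peaks of 3 genes lay near the promoter, with midpoints 143 bp into the exon of Pcdhga1, 256 bp into that of Pcdhga2 and 70 bp into that of Pcdhgb1. The peak of Pcdhga8 lay 902 bp, that of Pcdhga9 2111 bp and that of Pcdhgc5 2547 bp into the exon. In the beta exons most peaks lay deeper. The peak of Pcdhb1 overlapped the start of the exon, with its midpoint 6 bp upstream of it, and that of Pcdhb15 lay 288 bp inside. Pcdhb16 had its young Kap1 peak 258 bp upstream of the exon and an old Setdb1 peak 744 bp inside. Over the 19 young Kap1 peaks on large exons, 12 had their midpoint more than 1 kb from the exon's start, and 18 overlapped coding sequence. In the window 33.3% of young Kap1 peaks overlapped coding sequence (22.2% to 46.6%), where 13.6% of the bases are coding, and over the genome 4.31% did, where 1.31% of the bases are coding.

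**Figure D5:**
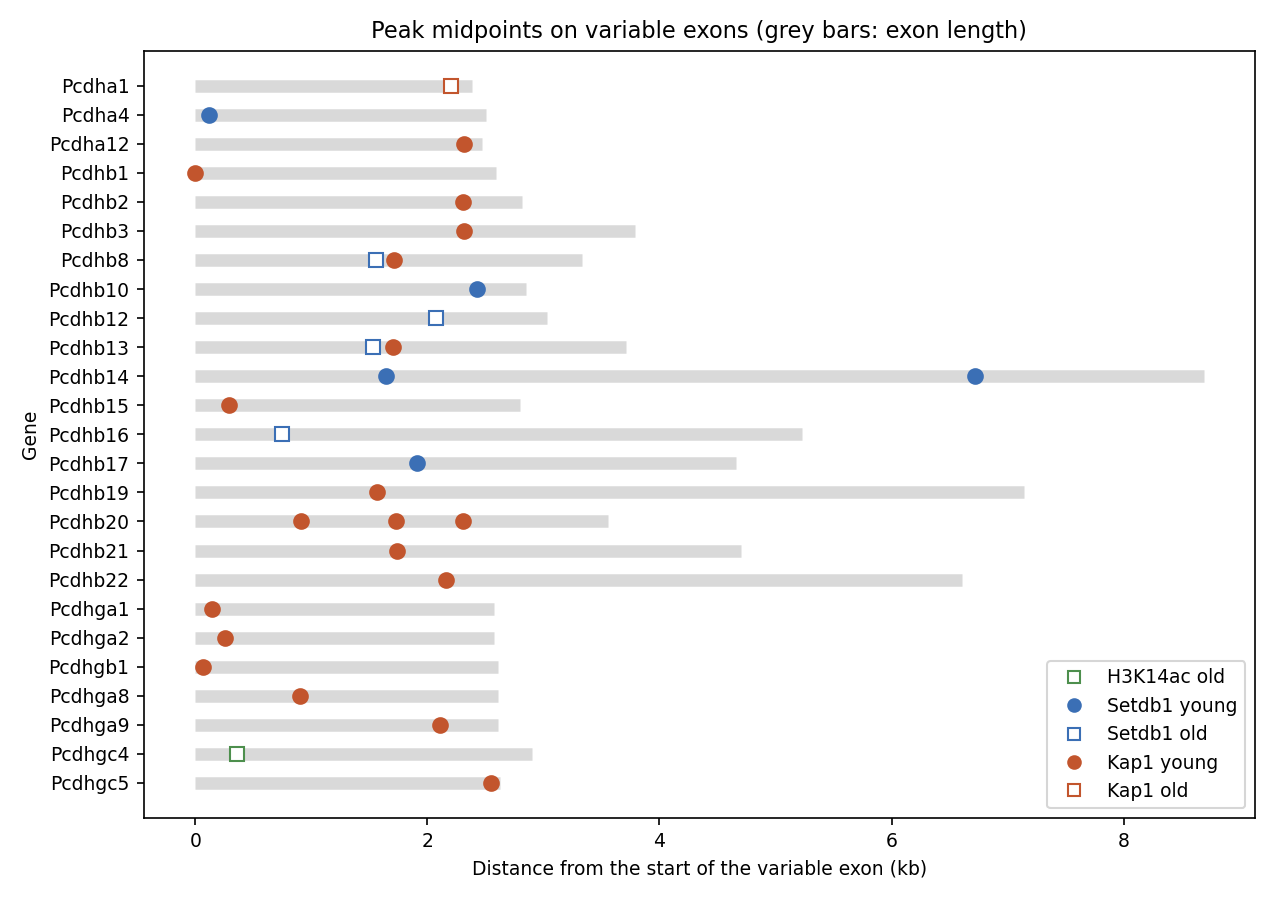
Midpoints of peaks over the large exons, by distance from the start of the exon in kb (horizontal axis), for the 25 genes with such a peak (filled circles for young, open squares for old liver, coloured by mark), with grey bars for the length of each exon. Young Kap1 peaks lie within 0.3 kb of the exon's start in Pcdhb1, Pcdhb15, Pcdhga1, Pcdhga2 and Pcdhgb1, and 12 of 19 lie beyond 1 kb.

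To compare positions between genes, the coding parts of the 57 large exons, which encode 772 to 854 amino acids, were translated and aligned, and each peak's midpoint was given its column of the 954 columns. Several peaks stood at nearly the same place of the protein, here within 20 columns of the next peak along the alignment. How often this would arise by chance was not tested. Young Kap1 peaks of Pcdhb3, Pcdhb2 and Pcdhb20 stood at columns 774, 777 and 780. Those of Pcdhb21, Pcdhb22 and Pcdhb20 stood at columns 572, 576 and 582, and a young Setdb1 peak of Pcdhb17 and the old Setdb1 peak of Pcdhb8 stood at 573 and 579. Pcdhb20 had 3 young Kap1 peaks, 909 bp, 1730 bp and 2309 bp into its exon, 2 of them in these bands. In these bands the peaks of Pcdhb3, Pcdhb22, Pcdhb17 and Pcdhb20 were at least 90% identical in sequence to another large exon. Those of Pcdhb2, Pcdhb21 and Pcdhb8 were 86% to 88% identical to their closest exon. Other young Kap1 peaks did not all share these places, since those of Pcdhb19, Pcdhb13 and Pcdhb8 stood at columns 526, 605 and 632. The Pcdhb19 peak stood near a young Setdb1 peak of Pcdhb14 (column 545) and the old Setdb1 peak of Pcdhb13 (column 548).

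The large exons are alike in sequence, which matters here because reads that align to several places were removed by the authors. Each peak over an exon was therefore aligned to the other 56 exons. Of the 19 young Kap1 peaks, 8 were at least 90% identical to a stretch of another large exon (42.1%, 23.1% to 63.7%), 6 of them in beta genes. Of all consecutive 150 bp pieces of the large exons, 22.0% were that alike, 23.4% in the beta, 29.1% in the alpha and 15.1% in the gamma exons. These pieces cover the whole exon with its untranslated parts, whereas 18 of the 19 peaks overlapped coding sequence, so the 2 shares are not strictly alike. The median identity of the 19 peaks to their closest exon was 88%, and the highest was 95.3%, between a peak of Pcdhb20 and the exon of Pcdhb19. The peaks of Pcdhb8 and Pcdhb12 had many near copies. The young Kap1 peak of Pcdhb8 was at least 90% identical to 14 other exons, and the old Setdb1 peak of Pcdhb12 to 8. In the whole genome, 2 young Kap1 peaks of the window, both of Pcdhb20, and 1 old Setdb1 peak, that of Pcdhb12, had another copy of at least 90% of their length at 95% identity or more. Without the 8 alike peaks, 11 young Kap1 peaks remained over large exons. What part sequence likeness has in the position or number of these peaks was not tested.

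The base composition of the peaks was compared with that of their lists, as a description. Young Kap1 peaks of the window had a median GC content of 50%, against 46.7% over the whole list, and a median ratio of observed to expected CpG of 0.219, against 0.130. More than 50% of the bases were repeats by soft-masking in 24.1% of these peaks and in 26.4% of the list. The 2 kb around the first start sites of the 57 genes had a median GC content of 42.9%, below the 51.2% of all protein-coding genes, with a similar ratio of CpG, 0.483 and 0.474. The peaks were narrow throughout. All but 1 of the 54 young Kap1 peaks had the modal width of 150 bp (98.1%), against 88.0% over the genome, and the exception, between Pcdhac1 and Pcdhac2, was 259 bp wide.

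Young and old peaks of a mark were compared for overlap in the cluster. No young Kap1 peak overlapped an old one. The 8 old peaks limit how many of the 54 young ones can have a partner, so the share was taken per old peak: 0 of 8 (up to 32.4%), against 17.1% of old Kap1 peaks over the genome, which lies within that limit. The closest were a young peak at chr18:37180143-37180292 and an old one at chr18:37180329-37180478, in the last intron of the alpha subcluster, with 36 bp between them. Of the 25 young Setdb1 peaks 1 overlapped an old one, chr18:37614831-37615030 with chr18:37614651-37614850, between the beta and gamma regions. This was 1 of 10 old Setdb1 peaks (1.79% to 40.4%), against 3.11% over the genome. For H3K14ac 0 of 3 old peaks had a young partner (up to 56.1%), against 20.1% over the genome. With so few old peaks, no difference from the genome was detectable for any of the 3 marks.

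Setdb1 and Kap1 were not called at the same bases at either age. Of the 25 young Setdb1 peaks, 0 overlapped a young Kap1 peak (up to 13.3%), and of the 10 old ones, 0 overlapped an old Kap1 peak (up to 27.8%), against 2.07% and 1.82% over the genome, both within those limits. In young liver, 3 of the 25 Setdb1 peaks lay within 500 bp of a Kap1 peak. The median gap over all 25 was 9377 bp. In old liver 0 of 10 did, and the smallest gap was 11291 bp. The share of such near pairs over the genome was not taken. A gap of 8 bp separated young peaks of both at chr18:37251727-37251876 and chr18:37251885-37252084, between the alpha and beta regions. A gap of 17 bp separated them upstream of Pcdhb13, at chr18:37440477-37440676 and chr18:37440694-37440843. Across ages, 2 of the 10 old Setdb1 peaks overlapped a young Kap1 peak, at the edge only, in the exons of Pcdhb8 and Pcdhb13. These pairs were chr18:37356731-37356930 with chr18:37356912-37357061, and chr18:37443936-37444135 with chr18:37444131-37444280. The share of such overlaps across ages over the genome was not taken. The young H3K14ac peak at chr18:37125055-37125554, in the alpha region, held a young Kap1 peak (20% of 5, 3.62% to 62.4%), against 12.1% over the genome. Grouped within 1 kb of each other, the 105 peaks of all lists formed 89 groups, of which 13 held peaks of more than 1 list and none held peaks of more than 2.

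Of 12 non-clustered protocadherin genes, Pcdh19 had a young Kap1 peak within 1 kb of a start site, Pcdh20 a young Setdb1 peak, Pcdh8 a young H3K14ac peak, and Pcdh1 and Pcdh7 an old H3K14ac peak. Among all protein-coding genes 5.32% had a young Kap1 peak there, 3.91% a young Setdb1 peak, and 18.3% and 26.6% a young and an old H3K14ac peak, so these counts of 1 or 2 in 12 are near the background. Between the beta and gamma regions, Slc25a2, a mitochondrial ornithine carrier, had 1 young Kap1 peak near its start site. Diaph1, at the right edge, had an H3K14ac peak at both ages at a start site that lies beyond the window, and its body held 5 young Kap1 peaks, 1 young Setdb1 peak and 1 old Setdb1 peak. Hdac3, a histone deacetylase gene that follows it outside the window, had a young H3K14ac peak at a start site and 4 young Kap1 peaks in its body. Of 16 genes for factors known to act on the cluster, 5 had H3K14ac at a start site in young liver and 12 in old liver. Both shares stood above the 18.3% and 26.6% of all protein-coding genes, the young one by less. With only 16 genes, no interval was taken and neither difference was tested. Kap1 was at a start site of none of the 16 at either age, against 5.32% of all protein-coding genes in young and 2.3% in old liver. A count of 0 in 16 is near that background. At both ages H3K14ac was at that of Ctcf, which binds the promoters of the cluster, of Nipbl and Stag2, which load and form cohesin, of Trim28, which encodes Kap1 itself, and of the methyltransferase Ehmt1. Dnmt3b, a DNA methyltransferase, had an old H3K14ac peak and a young Setdb1 peak.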

How the data were processed

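The deposited lists hold positions of peaks (chromosome, start, end) in mm10 (GRCm38) and no other measurement. Reads had been aligned by the authors with BWA, freed of duplicates (Picard), limited to unique alignments and pooled within an age before PeakSeq compared them with input. The 4 sequential ChIP samples were not analysed here. Peaks were placed on GENCODE basic genes. Overlap means at least 1 bp, and the code was tested on simulated data and gave the counts of bedtools 2.31.1 in all of 30 comparisons. A large exon is the exon with the start codon. Segments were assigned by midpoint. Proteins were aligned with MAFFT, and minimap2 2.31 searched the genome for second copies. Software was Python 3.11.15 with scipy 1.17.1, numpy 2.4.6 and matplotlib 3.10.9. Every cluster gene with a peak at a start site or over its large exon is named, and so are protein-coding neighbours with a peak within 1 kb of their start (of other transcripts in the window none is named), and the 6 related genes with peaks in the most lists. The non-clustered protocadherin genes were named after their values were seen. The members and lists were chosen with earlier results of these data known.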

Additional observations from a re-analysis of the deposited data

How the results depend on the processing

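Of 82 alternatives to 25 counts and shares, 70 left the value within 1.5 times of the reported count or, for old shares, within its Wilson interval. Counts of peaks in the window stayed in that range without flanks, with 100 kb on each side, with peaks within 1000 bp merged and by midpoint, and the old share of Kap1 was 10.7% to 13.6%. With start sites counted within 5 kb, genes with a peak rose to 25 for young Kap1, 4 for old Kap1, 14 for young Setdb1, 11 for old Setdb1 and 3 for old H3K14ac. A gap of up to 500 bp gave 1 young-old pair of Kap1 peaks and 3 young Setdb1 peaks at a Kap1 peak, and peaks set to 200 bp gave 1 and 2. When 50% of both peaks had to overlap, the Setdb1 pair fell to 0, and so did the H3K14ac peak at Kap1, by construction, since a 150 bp peak cannot cover 50% of a 500 bp one. Overlap counts that were already 0 could not rise under this stricter rule. They are among the 70 unchanged values by construction. Without the peaks alike to another large exon, 11 young Kap1 peaks lay over large exons. That alternative, the others on large exons and those on old shares were added after the data were seen. No paired analysis was possible because each age has 1 merged list per mark. Depth is unknown, and peak widths are largely fixed.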
